A study of Mus musculus with 6 samples.

Results

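Fragments of the tRNAs for proline and glutamine were counted in mouse eye tissue made up of the retinal pigment epithelium (RPE) with the choroid and sclera behind it, with and without laser-induced choroidal neovascularization (CNV). They were all small RNAs whose name in the deposited tables starts with tRF-Pro- or tRF-Gln-, 40 of 498 tRNA-derived small RNAs (tsRNAs) and of 2334 small RNAs in all. Of these 14 are named for proline, 7 with anticodon AGG and 7 with TGG, and 26 for glutamine, 9 with CTG and 17 with TTG. The CNV group had 25 burns per eye from a 532 nm laser (100 mW, 0.1 s, 50 µm), placed around the optic disc, and tissue was taken 7 days later. The control group had no laser, and both groups were male mice of 7 to 8 weeks, with no strain named in the labels. Each group had 3 libraries, each from the pooled tissue of 4 eyes, made from inserts of 14 to 40 nt. Whether pools came from different mice is not stated, so a p-value here reflects only how these pools vary, and some of that variation may be technical. In such tissue, fewer cells of a type and less RNA per cell cannot be told apart.

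A tRNA carries an amino acid to the ribosome and reads the codon through its anticodon. Nucleases cut mature tRNAs and their precursors into shorter RNAs, and a tRF is such a fragment, while the tiRNAs are longer pieces cut in the anticodon loop, in mammals by angiogenin under stress. Some tRFs bind Argonaute proteins, and fragments of glutamine tRNA have been linked to translation through the complex of aminoacyl-tRNA synthetases. Proline and glutamine tRNAs also serve as primers for reverse transcription of murine retroviruses. Proline tRNAs with different anticodons are nearly identical elsewhere, so their fragments can share reads, and the base modifications of tRNAs can stop the reverse transcriptase used to make a library.

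The names do not say from which end of the tRNA a fragment comes, or whether the tRNA is nuclear or mitochondrial. RefSeq lists 32 nuclear tRNA genes for these amino acids in build GRCm38.p6, of which 6 are Pro-AGG, 7 Pro-TGG, 3 Pro-CGG, 10 Gln-CTG and 6 Gln-TTG. Mitochondria have a single tRNA for each, mt-Tp at chrM:15356-15422 and mt-Tq at chrM:3772-3842, both on the minus strand of GRCm38 in GENCODE M21. Their anticodons are the TGG and TTG that some of the fragments are named for, and both are shown for that reason, with the anticodon in capitals at bases 31 to 33 of mt-Tp and 33 to 35 of mt-Tq, where a loop of 7 bases closed by 5 pairs was found.
mt-Tp: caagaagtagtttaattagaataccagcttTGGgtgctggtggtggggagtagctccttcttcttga
mt-Tq: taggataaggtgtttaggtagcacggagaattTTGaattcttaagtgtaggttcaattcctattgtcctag
Fragments named AGG or CTG have anticodons that neither of these tRNAs carries. How many TGG and TTG fragments are mitochondrial was not tested.

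The libraries held 5057142 to 12839386 counts, with control replicate 2 the deepest. The 40 fragments together had 3148, 8846 and 3135 counts in control replicates 1 to 3 and 2181, 2720 and 3516 in CNV replicates 1 to 3, so they were a small part of the tsRNAs. Their share of tsRNA counts was 0.930%, 1.44% and 1.22% in control replicates 1 to 3 and 0.425%, 0.482% and 0.960% in CNV replicates 1 to 3. The groups overlapped, because CNV replicate 3 lay above control replicate 1. Levels in CPM (counts per 1e6 counts) here and below are relative to library totals scaled by TMM (trimmed mean of M-values). Means are given ± SD over the 3 pools (n = 3). The tsRNA total that the share is divided by was itself mostly larger in CNV. All tsRNAs together were at 58401, 44131 and 52678 CPM in control and 99750, 112249 and 62946 in CNV. As a share of all counts, without TMM, they were 6.478%, 4.78% and 5.10% in control and 8.81%, 10.6% and 6.471% in CNV. By that measure the groups overlapped, because CNV replicate 3 lay just below control replicate 1.

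The miRNAs fixed as markers were all counted in every library. The 4 RPE markers, arms of miR-204 and miR-211, summed to 6841 to 7042 CPM in control and 4573 to 6546 in CNV. The 5 neural retina markers, which include the miR-183 cluster, summed to 62188 to 95738 CPM in control and 31909 to 61196 in CNV. The 5 leukocyte markers summed to 545 to 662 and 700.0 to 1015 CPM. The RPE, neural retina and leukocyte sums thus differed between groups without overlap at the TMM scaling. With library totals as the only scaling, the leukocyte groups overlapped, because control replicate 1 lay above CNV replicate 3. The 3 muscle markers were at 34304 CPM in control replicate 1 and at 57437 to 91114 in the other libraries. The 3 red cell markers spanned 1311 to 2108 CPM in control and 955 to 4165 in CNV, and the 2 endothelial ones 35247 to 45069 and 35449 to 42881. The part of these tissue differences in the results on the fragments was not tested.

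Of the 40 fragments 36 had enough counts to be tested, all 7 Pro-AGG, 5 Pro-TGG, all 9 Gln-CTG and 15 Gln-TTG. None passed the threshold of 0.05 in the edgeR quasi-likelihood fit, with p adjusted by Benjamini-Hochberg over 997 small RNAs, where 0.301% of all small RNAs and 0 of 456 tsRNAs were called. The smallest adjusted p of a member was 0.209. Before adjustment 3 of 36 had a p under 0.05, 1 higher in CNV and 2 lower, against 18.0% of tsRNAs (13.6% higher and 4.39% lower). DESeq2 and limma-voom also called 0 of them, each with 5 at an unadjusted p under 0.05, where DESeq2 called 6.37% of the tsRNAs to which it gave an adjusted p, with 24.7% of them under 0.05 before adjustment. By limma-voom 0 of 456 tsRNAs were called, and 18.2% were under 0.05 before adjustment. DESeq2 gave an adjusted p to 27 of the 36 members. The fold change was negative for 22 and positive for 14, with a median log2 of -0.11 against 0.08 for all tested tsRNAs. Scaled by library totals alone, these medians were -0.26 and -0.07, and that of all 997 small RNAs went from 0.05 to -0.11. The groups did not overlap in CPM for 1 of the 36, which was higher, against 16.0% of tsRNAs (9.87% higher and 6.14% lower). Scaled by library totals alone, they did not overlap for 1 member that was higher and 3 that were lower, against 6.36% and 8.33% of tsRNAs.

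**Figure D1:**
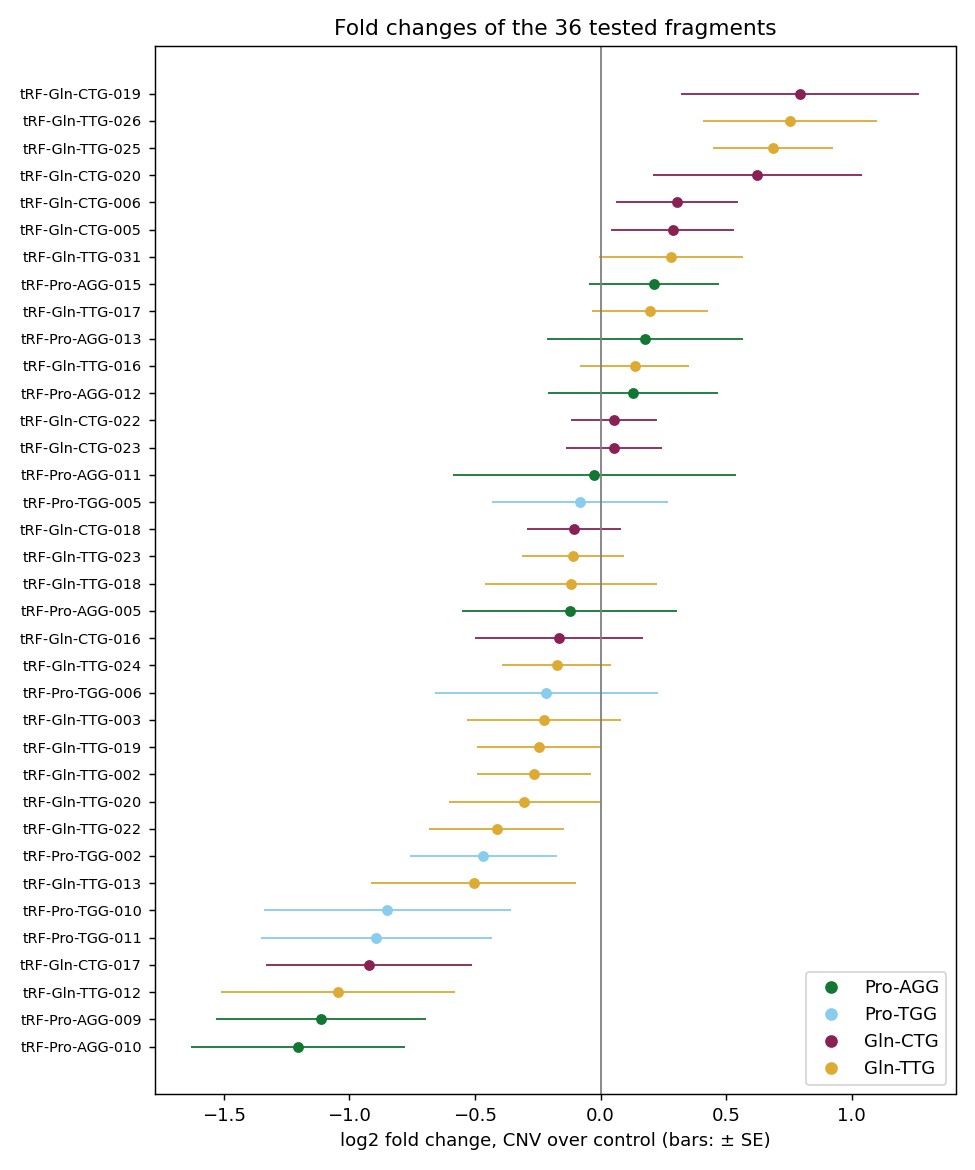
Log2 fold change of CNV over control (x axis) for the 36 tested fragments (rows), coloured by anticodon, with bars of ± SE from the edgeR fit. Both ends hold few fragments, with Pro-AGG-010 at -1.20 and Gln-CTG-019 at 0.79, and no fragment passed the adjusted threshold.

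Among the 36 tested fragments, the 2 lowest log2 fold changes were those of a pair of Pro-AGG fragments. The level of tRF-Pro-AGG-010 was 14.8, 38.9 and 29.4 CPM in control replicates 1 to 3 and 6.81, 10.9 and 18.4 CPM in CNV replicates 1 to 3. The groups overlapped, because CNV replicate 3 lay above control replicate 1, and both other CNV pools lay below every control. The log2 fold change was -1.20 (SE 0.43), from 27.7 ± 12.1 to 12.1 ± 5.87 CPM, with an adjusted p of 0.217 in edgeR's test. The level of tRF-Pro-AGG-009 was 17.6, 31.1 and 26.7 CPM in control and 5.06, 11.3 and 18.4 CPM in CNV. Its highest CNV pool and its lowest control pool differed by less than 1 CPM, and scaling by library totals alone left no overlap between groups. Its log2 fold change was -1.11 (SE 0.42) with an adjusted p of 0.232. These levels rested on 26 to 107 counts per CNV library and 102 to 432 per control library for tRF-Pro-AGG-009, and on 35 to 107 and 86 to 541 for tRF-Pro-AGG-010. Within a library both had close to the same level, at a ratio of 009 to 010 of 0.743 to 1.19.

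The other 5 Pro-AGG fragments had smaller fold changes. The level of tRF-Pro-AGG-012 was 12.4, 33.1 and 29.2 CPM in control and 23.7, 26.7 and 31.6 in CNV (log2 0.13, SE 0.34). For tRF-Pro-AGG-013 it was 8.97, 22.6 and 20.01 CPM in control and 11.7, 20.5 and 26.5 in CNV (log2 0.18, SE 0.39). Control replicate 1 was the lowest library for both. The level of tRF-Pro-AGG-011 was 4.83, 11.1 and 12.7 CPM in control and 3.70, 5.97 and 18.2 in CNV (log2 -0.02, SE 0.56), with the highest value and the lowest both in the CNV group. The 2 rarest, tRF-Pro-AGG-005 and tRF-Pro-AGG-015, had log2 fold changes of -0.12 and 0.21. The adjusted p of these 5 ran from 0.722 to 0.984.

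**Figure D2:**
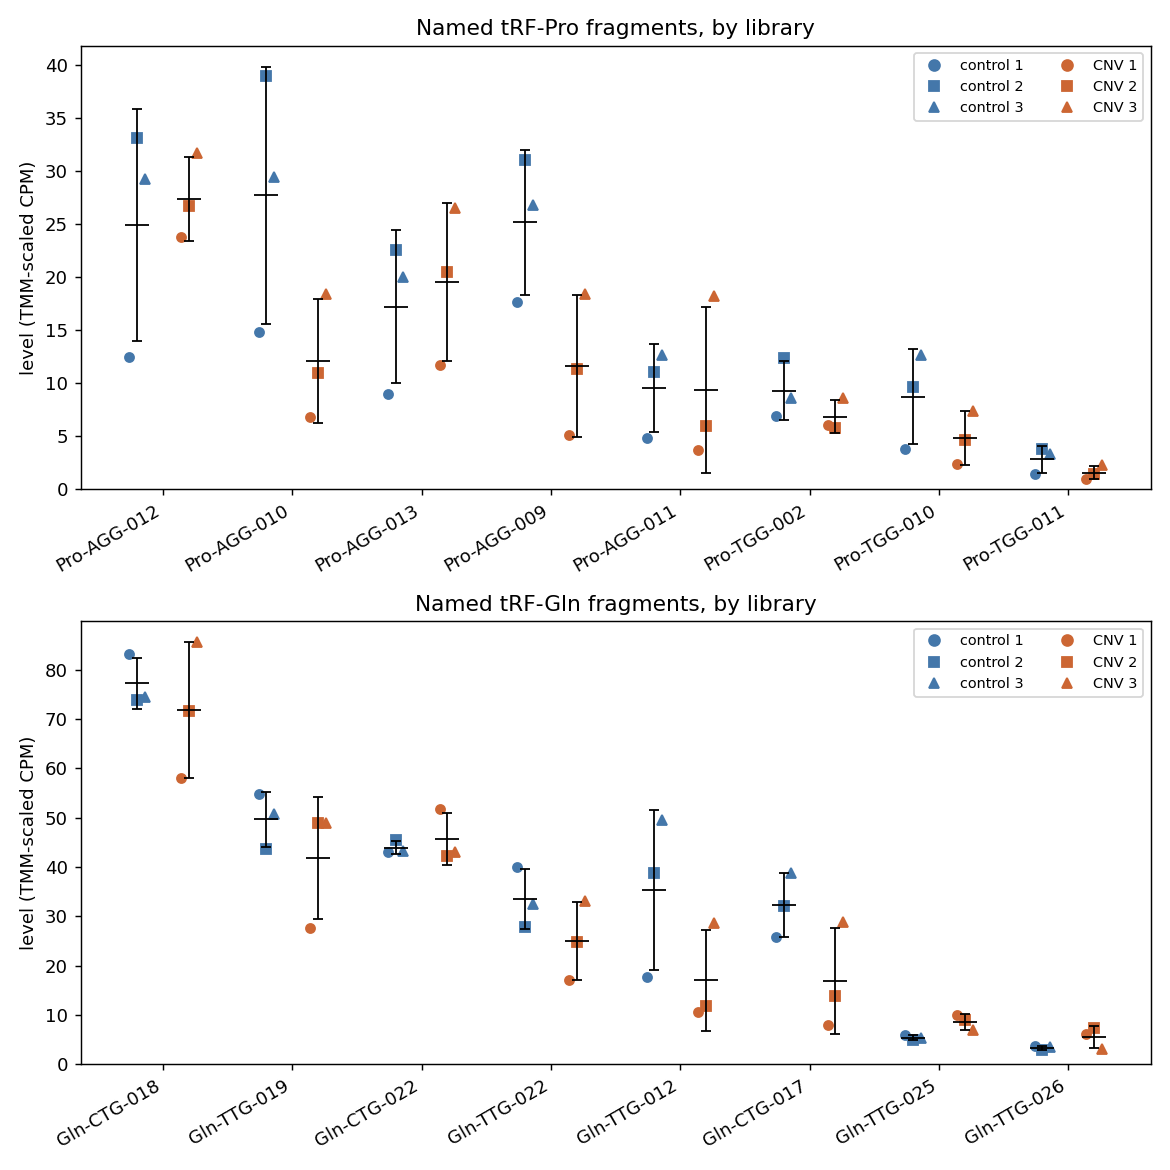
Level in TMM-scaled CPM (y axis) of the named tRF-Pro (top) and tRF-Gln (bottom) fragments in each control and CNV library, with the symbol giving the replicate and black bars the mean ± SD of 3 pools. For Pro-AGG-009, Pro-AGG-010, Gln-CTG-017 and Gln-TTG-012 CNV replicates 1 and 2 lie below all control libraries. In these CNV replicate 3 lies among the controls or, for Pro-AGG-009, just above the lowest. CNV replicates 1 and 2 also lie below all control libraries for Pro-TGG-002, Gln-CTG-018 and Gln-TTG-022, whose fold changes are smaller.

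All 5 tested Pro-TGG fragments had a negative fold change, with a median log2 of -0.47, and none passed. The level of tRF-Pro-TGG-002 was 6.90, 12.4 and 8.58 CPM in control and 6.03, 5.77 and 8.60 in the CNV pools (log2 -0.47, SE 0.29). The level of tRF-Pro-TGG-010 was 3.80, 9.63 and 12.7 CPM in control and 2.33, 4.58 and 7.39 in CNV (log2 -0.85, SE 0.49). The rare tRF-Pro-TGG-011 was at 1.38, 3.74 and 3.27 CPM in control and 0.973, 1.39 and 2.24 in CNV (log2 -0.89, SE 0.46), from 5 to 52 counts per library. In each of these fragments at least 1 CNV pool lay above control replicate 1. Their adjusted p ran from 0.372 to 0.472 in edgeR's test. The other tested ones, tRF-Pro-TGG-005 and tRF-Pro-TGG-006, had log2 fold changes of -0.08 and -0.22. Too rare to be tested were tRF-Pro-TGG-007, with 17, 12 and 6 counts in control and 4, 2 and 3 in CNV, and tRF-Pro-TGG-008, with 14, 24 and 4 against 6, 4 and 7. The CPM of tRF-Pro-TGG-007 did not overlap between groups either (2.93, 0.863 and 1.23 in control, 0.778, 0.398 and 0.516 in CNV), on these few counts.

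Glutamine fragments summed to more than those of proline, and 4 of their 6 most abundant members had log2 fold changes between -0.41 and 0.05. The level of tRF-Gln-CTG-018 was 83.2, 73.9 and 74.5 CPM in control and 58.0, 71.7 and 85.6 in the CNV pools (log2 -0.10, SE 0.19). The level of tRF-Gln-CTG-022 was 43.1, 45.4 and 43.3 CPM in control and 51.8, 42.2 and 43.0 in CNV (log2 0.05, SE 0.17), and its SE was the smallest among the 36 fragments. Scaled by library totals alone, its log2 fold change was -0.10. Among the fragments named TTG, tRF-Gln-TTG-019 was at 54.7, 43.6 and 50.6 CPM in control and 27.6, 49.0 and 48.8 in CNV (log2 -0.25, SE 0.25). For tRF-Gln-TTG-022 the levels were 40.0, 27.9 and 32.5 CPM in control and 17.1, 24.9 and 33.0 in CNV (log2 -0.41, SE 0.27). CNV replicate 1 was the lowest library for CTG-018, TTG-019 and TTG-022, while the other CNV pools lay within or close to the control range. The adjusted p of these 4 ran from 0.486 to 0.919.

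The lowest log2 fold change of each glutamine anticodon was that of a fragment lower in 2 of the 3 CNV pools than in any control pool. This trait was not particular to them. It was also seen, with smaller fold changes, in other glutamine fragments, among them tRF-Gln-CTG-018 (log2 -0.10), tRF-Gln-TTG-022 (log2 -0.41), tRF-Gln-TTG-002, tRF-Gln-TTG-003, tRF-Gln-TTG-020 and tRF-Gln-TTG-024. The level of tRF-Gln-CTG-017 was 25.9, 32.1 and 38.8 CPM in control and 7.98, 13.9 and 28.9 in CNV, on 150 to 447 and 41 to 168 counts. Its mean went from 32.3 ± 6.46 to 16.9 ± 10.8 CPM (log2 -0.92, SE 0.41), with an adjusted p of 0.280 in edgeR's test. The level of tRF-Gln-TTG-012 was 17.6, 38.7 and 49.4 CPM in control and 10.5, 11.7 and 28.7 in CNV, on 102 to 539 and 54 to 167 counts. Its mean went from 35.3 ± 16.2 to 17.0 ± 10.2 CPM (log2 -1.05, SE 0.47), also with an adjusted p of 0.280. In both, CNV replicate 3 lay inside the control range. This was also the CNV pool with the highest neural retina sum, 61196 CPM against 44638 and 31909 in CNV replicates 1 and 2. Its leukocyte sum was the smallest of the CNV pools, 700.0 CPM against 1015 and 955. These 2 sums were the nearest to control, but its RPE sum was the furthest, 4573 CPM against 6546 and 5166. Its red cell sum, 955 CPM against 4165 and 3236, was below every control pool. The part of any of these in the fragment levels was not tested. Without a filter on low counts 4 of 40 fragments were called, all lower in CNV, namely tRF-Pro-AGG-009, tRF-Pro-AGG-010, tRF-Gln-CTG-017 and tRF-Gln-TTG-012 (adjusted p 0.00136, 3.65e-04, 0.00727 and 0.00155), where 7.63% of tsRNAs were called. The highest adjusted p over all alternatives was 0.594, 0.594, 0.664 and 0.669 for them. Leaving out CNV replicate 3 gave 1 call, tRF-Gln-CTG-017 (log2 -1.63, adjusted p 0.0440), where 1.48% of tsRNAs were called.

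Among the 36 tested fragments, the only one whose groups did not overlap in CPM was the rare tRF-Gln-TTG-025. Its level was 5.87, 4.89 and 5.31 CPM in control and 9.92, 8.96 and 6.88 in CNV, on 26 to 68 counts per library. Every CNV pool lay above every control pool, and this held when library totals were the sole scaling. The mean went from 5.35 ± 0.490 to 8.59 ± 1.56 CPM, a 1.61-fold difference (log2 0.69, SE 0.24) with an adjusted p of 0.209, the smallest of the 36. The neighbour in number, tRF-Gln-TTG-026, was at 3.62, 2.88 and 3.47 CPM in control and 6.23, 7.36 and 3.10 in CNV (log2 0.75, SE 0.35, adjusted p 0.300), with CNV replicate 3 inside the control range. The largest positive fold change, that of tRF-Gln-CTG-019 (named after its value was seen), rested on 4 to 25 counts per library (log2 0.79, SE 0.47). The remaining 15 tested glutamine fragments, 5 of them named CTG and 10 named TTG, ranged from a log2 fold change of -0.51 for tRF-Gln-TTG-013 to 0.62 for tRF-Gln-CTG-020. Too rare to be tested were tRF-Gln-TTG-006, with 2 to 31 counts, and tRF-Gln-TTG-030, with 4 to 34.

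Summed over its members, each anticodon was described without a test, because a sum over chosen members has no independent support. The Pro-TGG fragments summed to 30.5, 34.9 and 36.1 CPM in control and 16.9, 25.3 and 28.0 in CNV, so every CNV pool lay below every control pool. The ratio of group means was 0.691 (log2 -0.53), and -0.66 to -0.56 on the log2 scale under 3 other scalings. With 1 library left out it ran from -0.76 (CNV replicate 3) to -0.35 (CNV replicate 1). Of the 46 anticodon sums of tRFs in the tables, it was the only one lower without overlap (2.17%), while 15.2% were higher. Scaled by library totals alone, these shares were 15.2% lower and 4.35% higher. The Pro-AGG fragments summed to 66.1, 143 and 130 CPM in control and 59.5, 85.6 and 120 in CNV, with control replicate 1 close to the lowest CNV pool. Without control replicate 1 their log2 ratio was -0.61 rather than -0.36, without CNV replicate 3 it was -0.70, and without CNV replicate 1 it was -0.15.

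The Gln-CTG sum was 207.5, 209.4 and 209.5 CPM in control and 186, 197 and 215 in CNV. At the TMM scaling the control pools lay within 2 CPM of each other and inside the CNV range. With library totals as the only scaling, the control pools lay further apart, and control replicates 1 and 2 were above every CNV pool. The Gln-TTG sum was 239, 248 and 265 CPM in control and 162, 234 and 242 in CNV, with CNV replicate 1 apart from the rest. Without that library the log2 ratio of the Gln-TTG sum was -0.09 rather than -0.24. The TTG sum was 1.15, 1.19 and 1.26 times the CTG sum in the control libraries, and 0.872, 1.19 and 1.12 times in the CNV libraries. This ratio is free of the library scaling, and only CNV replicate 1 had fewer TTG than CTG counts.

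**Figure D3:**
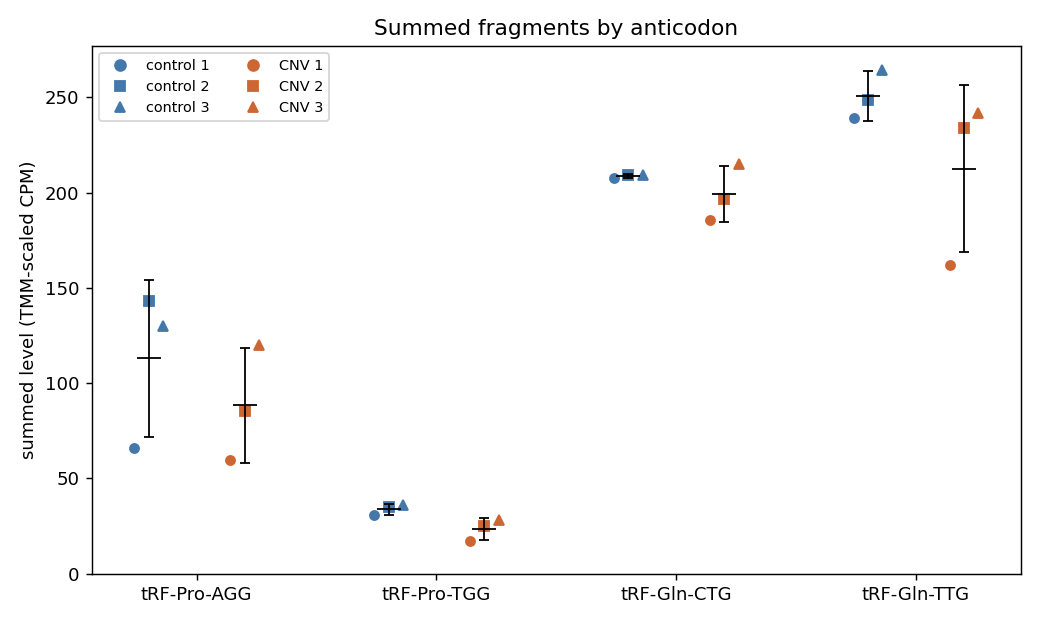
Summed level in TMM-scaled CPM (y axis) of the fragments of each anticodon in every control and CNV library, with black bars for the mean ± SD of 3 pools. The Pro-TGG sums of the CNV libraries, 16.9 to 28.0 CPM, lie below those of control, 30.5 to 36.1, and the other anticodons overlap.

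The make-up of the Pro-AGG fragments differed between groups without overlap for 4 of the 7, while their sum overlapped. Whatever the sum did, the share of its own anticodon did not overlap for 19.2% of the 452 tRFs in anticodon groups of 3 or more. The share of tRF-Pro-AGG-009 in the Pro-AGG counts of a library was 26.6%, 21.7% and 20.6% in control and 8.50%, 13.3% and 15.4% in CNV. The share of tRF-Pro-AGG-010 was 22.5%, 27.2% and 22.6% in control and 11.4%, 12.8% and 15.4% in CNV. Every CNV pool, replicate 3 included, lay below every control pool in both shares. Those of tRF-Pro-AGG-012 (18.8%, 23.1% and 22.5% against 39.9%, 31.2% and 26.4%) and tRF-Pro-AGG-013 (13.6%, 15.8% and 15.4% against 19.6%, 24.0% and 22.1%) were higher in every CNV pool. Shares of a whole move against each other, so the lower and the higher ones are not separate results. The counts of 009 and 010 together were 1.52, 1.26 and 1.14 times those of 012 and 013 in control, and 0.335, 0.473 and 0.633 times in CNV. These 4 fragments were singled out after their values were seen, and no test was made.

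**Figure D4:**
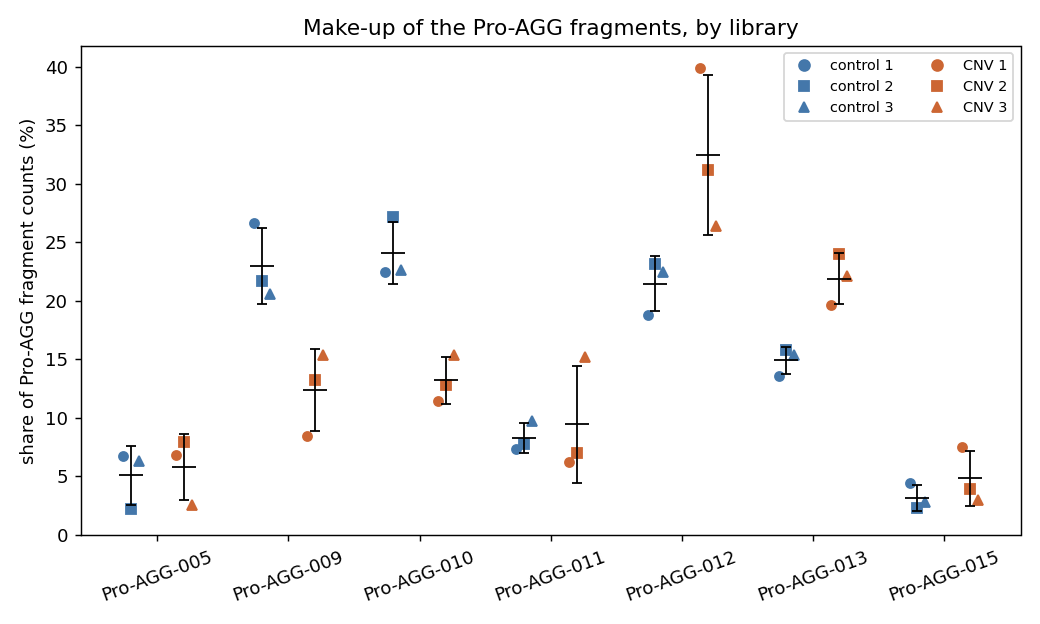
Share of each of the 7 Pro-AGG fragments in the Pro-AGG counts of a library, in percent (y axis), by library, with black bars for the mean ± SD of 3 pools. The shares of Pro-AGG-009 and Pro-AGG-010 are 8.50% to 15.4% in CNV and 20.6% to 27.2% in control, and those of Pro-AGG-012 and Pro-AGG-013 are higher in CNV.

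Over all 40 fragments the share within the anticodon did not overlap between groups for 6, of which 4 were higher and 2 lower in CNV. Among all 452 tRFs in anticodon groups of 3 or more it did not overlap for 19.2%, 7.96% higher and 11.3% lower, so the share of 6 in 40 is close to that background. The other 2 were tRF-Gln-TTG-025, at 2.45%, 1.97% and 2.01% of the Gln-TTG counts in control and 6.12%, 3.83% and 2.85% in CNV, and tRF-Gln-TTG-016, at 6.71%, 8.59% and 6.40% against 10.2%, 9.62% and 8.68%. No Pro-TGG or Gln-CTG share was free of overlap. In Gln-CTG, tRF-Gln-CTG-018 alone held 31.2% to 40.1% of the counts of each library.

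The longer tiRNAs of these tRNAs were few and rare. The tables hold 3 for proline and 1 for glutamine, all tested and none past the threshold. The level of tiRNA-Pro-CGG-001, the only proline entry with that anticodon, was 5.003, 8.48 and 6.94 CPM in control and 4.67, 7.17 and 7.91 in the CNV pools (log2 -0.07, SE 0.29). The level of tiRNA-Gln-TTG-002 was 7.42, 5.10 and 7.35 CPM in control and 7.78, 10.4 and 7.22 in CNV (log2 0.37, SE 0.26). The groups overlapped for both. For tiRNA-Pro-AGG-001 and tiRNA-Pro-TGG-002 the log2 fold changes were -0.49 and -0.09, from 5 to 39 and 11 to 73 counts per library.

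Among the tRFs of other amino acids, those of glycine and glutamate were the most abundant and had positive sums. The glycine tRFs summed to 37967 ± 6817 CPM in control and 75212 ± 23200 CPM in CNV (log2 ratio 0.99). The glutamate tRFs summed to 4290 ± 348 and 5790 ± 1157 CPM (log2 ratio 0.43), and neither pair of groups overlapped at the TMM scaling. With library totals as the only scaling, the glutamate groups overlapped, because CNV replicate 3 lay below control replicate 1. The proline tRFs, at 147 ± 44.0 and 112 ± 35.7 CPM (log2 -0.39), and the glutamine tRFs, at 459 ± 13.9 and 412 ± 56.8 CPM (log2 -0.16), had negative ratios and overlapped. The proline ratio was -0.72 without CNV replicate 3, -0.61 without control replicate 1 and -0.19 without CNV replicate 1. The glutamine ratio was -0.32 without CNV replicate 3, -0.25 without control replicate 2 and -0.060 without CNV replicate 1. Those of lysine (798 ± 227 and 827 ± 91.1 CPM) and valine (970.4 ± 45.8 and 1189 ± 293 CPM) overlapped as well. The median log2 fold change of tested members was -0.17 for proline and -0.11 for glutamine, against 0.18 for glycine, 0.06 for glutamate, -0.23 for lysine and -0.01 for valine. No fragment of these 6 amino acids passed the adjusted threshold, and the difference between amino acids was not tested.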

How the data were processed

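Small RNA libraries were made from Trizol-extracted RNA of pooled eyes and sequenced, per the labels' protocols. For every library the authors deposited a table of raw read counts, by miRNA and tsRNA, and a column headed CPM. The submitters' processing notes name Bowtie, without a version. No source used here gives the genome build, or how reads matching several fragments were counted. The deposited CPM column, treated as a score, was not tested or printed as a level, since the tsRNA values rest on totals other than the listed counts (586937 to 1540951). No listed tsRNA has a highest value under 20.03 in that column, so the tables list the more abundant fragments.

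Counts were analysed in R 4.3.3 with edgeR 4.0.16. All small RNAs were filtered with filterByExpr (minimum count 10, minimum total 15), which kept 997 of 2334, scaled with TMM and fitted in 1 quasi-likelihood model of CNV against control with no covariate. Benjamini-Hochberg adjustment ran over all 997, with a threshold of 0.05. SE is the log2 fold change divided by the square root of the F statistic. The fit was tested on simulated counts. Alternatives used other scalings and filters, DESeq2 1.42.0, limma-voom (limma 3.58.1), replicate number as a covariate, and each library left out in turn. With 3 pools a group, and 2 to 1028 counts per fragment and library, rare fragments have wide errors.

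Fragments named with their values were, in each amino acid, the 6 most abundant, the 4 with the smallest p, and those of at least 10 CPM whose groups did not overlap when scaled by library totals alone. Fragments and lists were chosen with earlier results of these data known. Shares within an anticodon were computed after the data had been seen.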

Additional observations from a re-analysis of the deposited data

How the results depend on the processing

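Of the 16 named fragments, 11 kept the direction of their difference in every alternative run for them and 5 did not. The counts of calls among the proline and glutamine fragments, 0 in the reported fit, were 4 without a filter on low counts and 3 with a replicate block, all lower in CNV, and 0 to 1 when each library was left out (1 lower, without CNV replicate 3). The cause was not tested. The other scalings, the stricter filter, DESeq2 and limma-voom gave 0. The replicate block called tRF-Pro-AGG-009, tRF-Pro-AGG-010 and tRF-Gln-TTG-012 (adjusted p 0.0446, 0.0430 and 0.0446), where 2.85% of tsRNAs were called. The labels do not say that a number marks a shared batch. Deviations of same-numbered pools from their group means correlated at 0.287, 0.0302 and 0.172 over small RNAs. The pairs were not treated as matched in the reported fit. Control replicate 1 correlated at 0.012 and -0.257 with CNV replicates 2 and 3, below its own number. Control replicate 3 correlated at -0.157 and -0.046 with CNV replicates 1 and 2, also below its own number. Only control replicate 2 correlated better with another number, CNV replicate 3 (0.152). Deviations from a group mean cancel within the group, so a higher correlation for a pair forces lower ones for other pairs. These values therefore cannot decide whether pools of the same number were matched.

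Directions turned for fragments near 0. The log2 fold change of tRF-Gln-CTG-022 was -0.10 with total counts as the only scaling, -0.031 with tsRNAs only and -0.031 without a filter. Leaving out libraries gave -0.054 to 0.058 for it, -0.33 to 0.018 for tRF-Gln-CTG-018, -1.05 to 0.34 for tRF-Pro-AGG-011, -0.18 to 0.32 for tRF-Pro-AGG-012 and -0.17 to 0.43 for tRF-Pro-AGG-013. Those that kept their direction included tRF-Pro-AGG-009 (-1.69 to -0.77 over all alternatives), tRF-Pro-AGG-010 (-1.72 to -0.93), tRF-Gln-CTG-017 (-1.63 to -0.60), tRF-Gln-TTG-012 (-1.73 to -0.77) and tRF-Gln-TTG-025 (0.51 to 0.77). The log2 ratio of the Gln-CTG sum, -0.07 as reported, was -0.21 with total counts and -0.15 with tsRNAs only, and -0.21 to -0.030 with a library left out. That of the glutamine sum was -0.32 to -0.060 with a library left out. All sums kept a negative ratio in the 9 alternatives run for them. With tsRNAs only, scaling and adjustment ran among 487 tsRNAs. Depth limits the rarest fragments, 4 of which could not be tested.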
